A study of Mus musculus with 24 samples.

Results

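Maturation of wild type (WT) osteoblasts (OBs) in culture was examined between days 8 and 14 after seeding. The comparison took every library labelled WT at either day, 4 at day 8 and 4 at day 14, which is 8 of the 24 libraries of the series. The cells were primary OBs from parietal bones of C57BL/6J mouse pups in the first days after birth, pooled from several pups before plating and kept in ascorbate-containing medium that supports collagen secretion and osteogenic differentiation. No library of these groups carries a mutation or received a drug, and the groups differ in day only. Heterozygous (Het) cultures, used below for one comparison, carry a glycine to cysteine substitution in the procollagen α2(I) chain and were grown alike. The study combined experiments on different litters that differed in plating density and in oxygen during expansion, and the labels do not say which replicate belongs to which experiment. Its methods describe fewer wells per genotype and day than the labels list libraries.

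OBs are the cells that build bone. After reaching confluence, they first lay down a matrix made mostly of type I collagen, then express alkaline phosphatase and the acidic proteins that seed hydroxyapatite, and some finally become osteocytes, the matrix-embedded cells that make sclerostin and FGF23. The transcription factors RUNX2 and osterix (*Sp7*) start this program, and Wnt, BMP, hedgehog and parathyroid hormone signals adjust it.

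The libraries held 21193927 to 50317720 counts at day 8 and 24549897 to 59734231 at day 14, and the lowest total at each day was that of replicate 1. Replicate 1 stood apart from the others at both days. Over genes, its root mean square log2 distance to the other replicates of its day was 0.440 to 0.608, against 0.149 to 0.224 among replicates 2 to 4 and 0.694 to 1.001 between days. At day 8, its second most counted gene was *Col2a1*, the collagen of cartilage, where *Col1a1* was second in replicates 2 to 4. Replicate 4 lay between replicate 1 and replicates 2 and 3. Among 446 genes that differed over 2-fold between replicate 1 and the mean of replicates 2 and 3 at day 8, replicate 4 took an intermediate level for 432 (96.9%), at a median place of 0.286 of the way to replicate 1 (quartiles 0.243 and 0.325). At day 14 the count was 290 of 326 genes (89.0%), with a median place of 0.339. Over the 11788 genes that averaged 200 counts or more at day 8, replicate 4 was within 20% of the mean CPM of replicates 1 to 3 for 99%, and at day 14 for 99.1% of 12189 genes. For the other replicates, set against the mean of the remaining 3, this share was 70.6% to 92.3%. The labels do not say how replicate 4 was made, and whether it is a culture of its own was not tested. If it is not, the tests over 4 libraries a day count too many replicates. List counts without it are given below where they move by over 1.5 times. Of the genes named below as risen or fallen, the following were not called without it: *Serpinb2*, *Prss22*, *Fabp7*, *Acta2*, *Spp1*, *Slc20a1*, *Plod2*, *P4ha3*, *Col5a1*, *Adamts2*, *Lox*, *Twist2*, *Tcf7*, *Bmpr1b*, *Egln3*, *Pdk1*, *mt-Nd3*, *Cebpb*, *E2f2*, *Plk1*, *Cdkn1a*, *Cdkn2a*, *Fbln2*, *Postn*, *Itga5*, *Ccl6*, *Lamp1*, *Isg15*, *Matn3*, *Col10a1*, *Dbp*, *Fosl1* and *Csf1*. Since the labels do not name separate animals, p-values measure the spread between these libraries only.

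**Figure D1:**
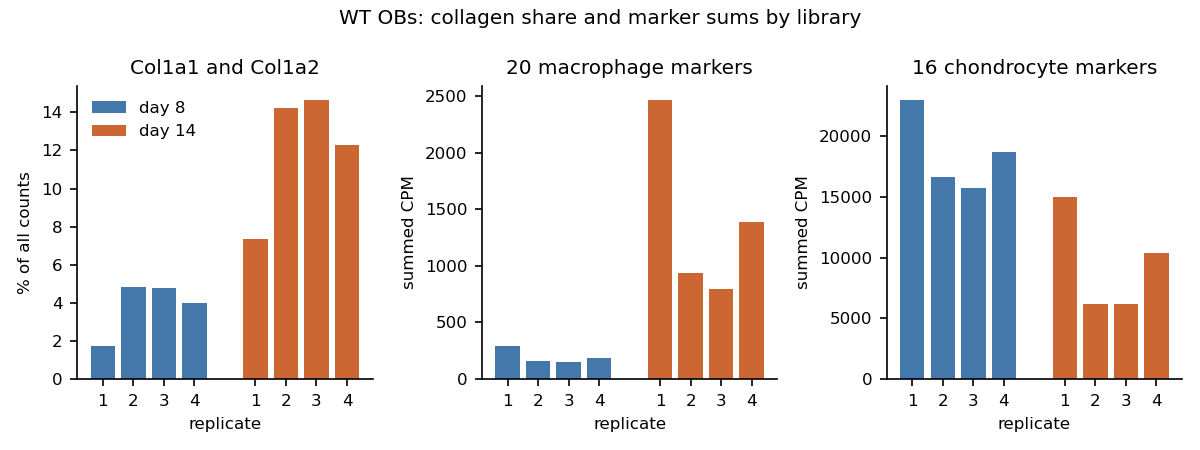
Share of all counts held by *Col1a1* and *Col1a2* (left, percent) and summed CPM (counts scaled by library total) of 20 macrophage markers (middle) and 16 chondrocyte markers (right) in each WT library, with replicates 1 to 4 at day 8 and at day 14 along the horizontal axis. The collagen share was 1.73% to 4.82% at day 8 and 7.34% to 14.7% at day 14, and replicate 1 had the highest macrophage and chondrocyte sums at both days.

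Levels are given as relative quantity (RQ), which sets each count against the geometric mean of 4 housekeeping genes of that library (*Sdha*, *Actb*, *Actg1* and *Mrfap1*). On this scale, 7019 of 18479 genes tested (38.0%) passed edgeR's quasi-likelihood test with an adjusted p below 0.05, and these are called changed below. Of them 5367 rose (29.0% of genes tested) and 1652 fell (8.94%). At least 2-fold changes were found for 1603 genes that rose and 311 that fell. The split between rises and falls depended on the scale. The housekeeping genes held 550.3 to 576.4 CPM (geometric mean) at day 8 and 445.9 to 470.9 at day 14. With edgeR's TMM scale, which centres the bulk of genes, log2 values were lower by a median of 0.121 (-0.121). On that scale 7936 genes were called (42.9%), of which 3823 rose (20.7% of genes tested) and 4113 fell (22.2%). With the replicate number as a block, 51.1% of genes were called, of which 6599 rose (35.7% of genes tested) and 2835 fell. Without replicate 1, 54.9% were called. Without replicate 4, 3066 of 18532 genes tested rose and 612 fell, and list counts without it are to be read beside these. The RQs of the days did not overlap, with day 14 above, for 30.0% of genes, and with day 14 below for 8.43%. In bulk RNA a higher level per cell and more cells of a type cannot be told apart, which holds for all results below.

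By raw count, the leading gene changed between the days. At day 8, *Fn1*, which encodes the early matrix protein fibronectin, was the most counted gene in all 4 libraries, and at day 14 *Col1a1* was. *Col1a1* (chr11:94936224-94953042, GRCm38, plus strand) had RQs of 16.7, 46.3, 44.2 and 37.6 in replicates 1 to 4 at day 8 and of 82.6, 161.4, 168.4 and 138.4 at day 14. The days did not overlap, and replicate 1 was the lowest at each. The log2 fold change was 1.93 ± 0.36 (SE, adjusted p = 0.0041), and for *Col1a2*, the partner chain, it was 1.98 ± 0.34 (adjusted p = 0.00275). Per length, among protein-coding genes, *Col1a1* moved from rank 3 to rank 1 in TPM (length-scaled transcript abundance), at 8432 ± 3098 (SD, n = 4) and 28430 ± 9561. *Sparc*, a collagen-binding protein of bone matrix, moved from rank 5 to rank 2. On that scale *mt-Co1*, a mitochondrial gene, was at rank 1 at day 8 and *Fn1* at rank 4. The number of genes that held 50% of all counts fell from between 625 and 750 to between 417 and 511.

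Matrix proteins of mineralized bone rose strongly. Of 11 tested members, 10 rose and none fell, with a median log2 fold change of 3.40, beside 0.115 over all genes. The exception was *Mgp*, an inhibitor of calcification, at 0.62 with an adjusted p above the threshold. *Ibsp* encodes bone sialoprotein, which binds hydroxyapatite. Its RQ was 0.250, 0.668, 0.742 and 0.546 at day 8 and 15.5, 10.3, 9.30 and 11.2 at day 14, a 20.9-fold higher mean (log2 4.39 ± 0.37, adjusted p = 9.76e-05). The order of replicates turned around: replicate 1 was the lowest at day 8 and the highest at day 14. *Ibsp* was at rank 237 of protein-coding genes by TPM at day 8 and at rank 6 at day 14. The osteopontin gene *Spp1*, active earlier, had a log2 fold change of 0.58 ± 0.18 only (adjusted p = 0.0329). Both belong to a cluster of genes for acidic bone proteins on chromosome 5 (GRCm38, plus strand) with *Dmp1* at chr5:104202613-104214102, *Ibsp* at chr5:104299171-104311469, *Mepe* at chr5:104325329-104338611 and *Spp1* at chr5:104435118-104441050. All of these 4 neighbours rose, by log2 values from 0.58 to 7.89.

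Osteocalcin, a late OB hormone that binds calcium, is encoded by *Bglap* and its near-identical copy *Bglap2*, between which the counting could have split reads. *Bglap* (chr3:88383501-88384464, minus strand) had RQs of 0.00240, 0.00270, 0.00238 and 0.00310 at day 8 and of 0.130, 0.498, 0.608 and 0.401 at day 14. All day 14 values were above all day 8 values, and replicate 1 was the lowest of the 4 at day 14. The log2 fold change was 7.25 ± 0.55 (adjusted p = 6.33e-05) for *Bglap*, 6.29 ± 0.51 for *Bglap2* and 3.40 ± 0.29 for the weakly expressed *Bglap3*. *Mepe*, a phosphoprotein of osteocytes that regulates mineralization, had 0 to 10 counts per library at day 8. Its RQ at day 14 was 0.116, 0.0281, 0.0410 and 0.0579, with replicate 1 the highest (log2 7.89 ± 0.73, adjusted p = 0.000146).

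**Figure D2:**
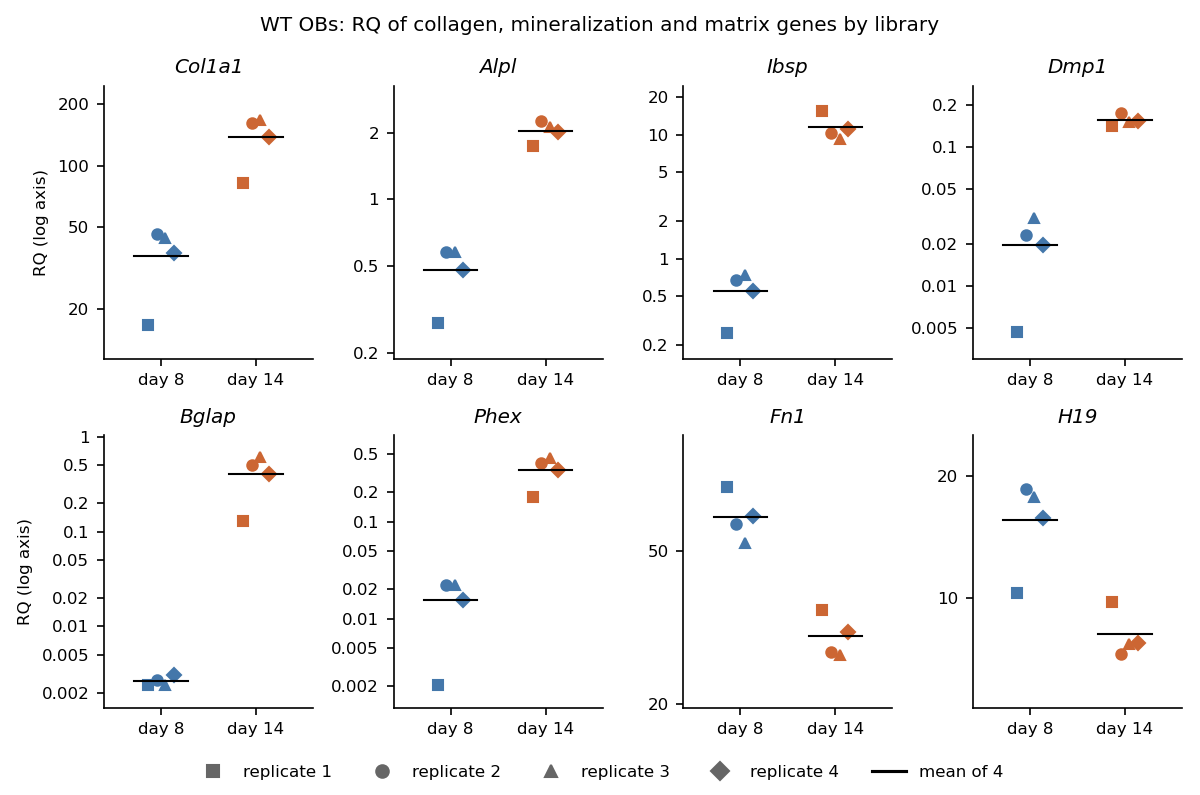
RQ (log axis) of 8 genes in each WT library at days 8 and 14, with a symbol for each replicate and a line at the mean of 4. *Col1a1*, *Alpl*, *Ibsp*, *Dmp1*, *Bglap* and *Phex* were higher in every day 14 library than in any day 8 library, *Fn1* and *H19* were lower, and replicate 1 (squares) was often the lowest at day 8.

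The promoters of *Bglap*, a marker of OB differentiation in the study, and of *Mepe*, the bone matrix gene with the largest rise, are shown with matches to TGTGGT, the core sequence bound by RUNX factors, on either strand in capitals. Each window runs from 250 bases before to 50 bases after the RefSeq start (GRCm38.p6), at chr3:88384417-88384716 on the minus strand for *Bglap* and at chr5:104325079-104325378 on the plus strand for *Mepe*.
Bglap: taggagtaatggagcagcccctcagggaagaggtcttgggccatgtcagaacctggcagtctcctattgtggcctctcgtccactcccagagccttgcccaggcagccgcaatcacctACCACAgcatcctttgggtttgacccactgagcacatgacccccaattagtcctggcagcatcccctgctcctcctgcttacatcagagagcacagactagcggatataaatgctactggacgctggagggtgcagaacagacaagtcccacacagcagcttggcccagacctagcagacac
Mepe: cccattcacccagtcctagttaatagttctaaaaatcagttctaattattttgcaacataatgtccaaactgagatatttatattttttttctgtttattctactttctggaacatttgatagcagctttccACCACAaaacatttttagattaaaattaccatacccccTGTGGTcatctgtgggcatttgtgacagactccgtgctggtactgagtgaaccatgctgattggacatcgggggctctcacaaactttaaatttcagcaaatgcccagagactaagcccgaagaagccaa
The *Bglap* window holds 1 match, the first base of which lies 132 bases before the start (-132), and the *Mepe* window holds 2, at -118 and -80. Of the bone matrix list, 9 of 11 tested members have a window in the table and 4 of the 9 hold the core (44.4%), beside 16.9% of 27025 mouse promoter windows. The list consists of bone genes and all 9 rose, so this share does not bear on the change between the days. A match is a string of letters and not a site shown to be bound.

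Of 11 enzymes and transporters of mineralization, 6 rose and 1 fell, and without replicate 4, 6 rose and none fell. Tissue-nonspecific alkaline phosphatase (*Alpl*), which removes the inhibitor pyrophosphate, had RQs of 0.274, 0.578, 0.579 and 0.480 at day 8 and of 1.75, 2.26, 2.13 and 2.02 at day 14 (log2 2.10 ± 0.23, adjusted p = 0.000277). The phosphatase *Phospho1* and the sphingomyelinase *Smpd3*, which act together in matrix vesicles, rose by 3.14 ± 0.45 and 2.88 ± 0.34 on the log2 scale. *Phex*, a peptidase that cleaves acidic matrix peptides, rose by 4.42 ± 0.60, from RQs of 0.00206 to 0.0224 to RQs of 0.179 to 0.458. The phosphate transporter *Slc20a1* fell by 1.65 ± 0.45 (adjusted p = 0.022, and 0.0981 without replicate 4), from RQs of 0.647, 0.198, 0.179 and 0.308 to 0.152, 0.0876, 0.0754 and 0.110. Replicate 1 was the highest at both days for this gene. The pyrophosphate channel *Ank* and the pyrophosphate-producing enzyme *Enpp1* did not pass the test, at log2 values of -0.02 and -0.97.

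Genes of osteocytes were among those with the largest rises. *Sost* encodes sclerostin, the Wnt inhibitor made by osteocytes. It had 0 to 18 counts per library at day 8 and RQs of 0.0240, 0.113, 0.177 and 0.0969 at day 14 (log2 8.40 ± 0.88, adjusted p = 0.000257). Replicate 1 was again the lowest at day 14. *Dmp1*, which nucleates mineral, rose by 2.94 ± 0.43, with RQs of 0.00472, 0.0232, 0.0311 and 0.0198 at day 8 and of 0.141, 0.176, 0.151 and 0.153 at day 14. Of 8 osteocyte markers tested, 5 rose and 1 fell, the connexin gene *Gja1* at -0.50. *Pdpn* and *Cd44*, which mark the early osteocyte surface, did not pass the test (0.12 and -0.18), and *Fgf23* had too few counts to be tested. Several genes outside any list had rises of this size. *Lipc*, which encodes hepatic lipase, *Ranbp3l*, a nuclear export factor, and *Spock1*, a proteoglycan gene, rose by 6.01 ± 0.30, 5.79 ± 0.17 and 5.74 ± 0.28 on the log2 scale. For *Ranbp3l* the day 14 RQs lay within 0.0192 and 0.0253, so that its replicates were closer to each other than those of *Bglap* or *Sost*. *Cox8b*, a muscle-type subunit of cytochrome c oxidase, had no count in any day 8 library and 14 to 152 counts at day 14, which is at least 27.1-fold higher against a floor of 3 counts per library.

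Genes that fold, modify and export procollagen mostly rose. Of 19 folding and hydroxylation genes, 15 rose and 2 fell (median log2 0.53, 15 and 3 with TMM, 14 and none without replicate 4). The prolyl 4-hydroxylase subunit *P4ha1* led, with RQs of 0.345, 0.803, 0.818 and 0.644 at day 8 and of 2.76, 2.96, 3.06 and 2.83 at day 14 (log2 2.15 ± 0.25, adjusted p = 0.000389). *P3h2*, *P4ha2*, the lysyl hydroxylase *Plod1* and the collagen chaperone *Serpinh1* followed at log2 values of 1.53, 1.37, 0.82 and 0.66. The telopeptide lysyl hydroxylase *Plod2* fell by 0.43 (-0.43 ± 0.14, adjusted p = 0.0367), and its RQs overlapped between the days. *P4ha3* also fell, at -0.34. Of the 11 fibrillar collagen genes, 8 rose and none fell on the housekeeping scale, while 6 rose and 2 fell with TMM and 5 rose without replicate 4. *Col24a1*, a minor fibrillar collagen of bone, changed most (2.84 ± 0.43), *Col5a1* and *Col5a2*, which set fibril diameter, rose by 0.54 and 0.73, and *Col3a1* of soft tissue did not pass the test (0.32, adjusted p = 0.25). Of 12 cleavage and crosslinking genes, 7 rose and 2 fell (4 and 2 without replicate 4). The N-propeptidase *Adamts2* (1.35), the C-propeptidase *Bmp1* (0.86) and the crosslinking enzymes *Loxl4* (2.46) and *Lox* (0.40) rose, while *Loxl1* fell (-0.78). Of 18 genes of COPII coats and export from the ER, 14 rose and none fell with a median of 0.29. With TMM 10 rose and 2 fell, and without replicate 4, 7 rose.

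**Figure D3:**
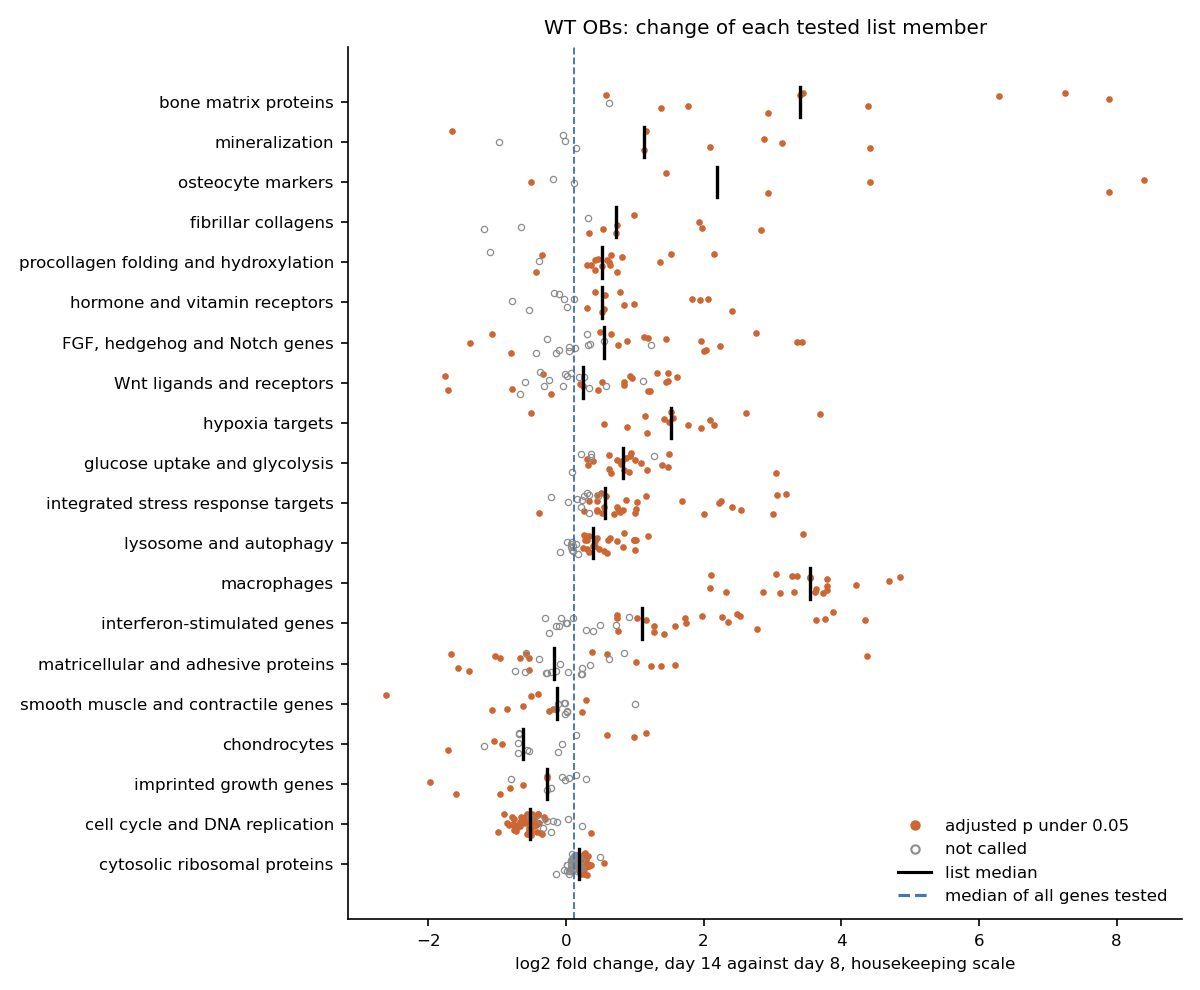
Log2 fold change from day 8 to day 14 on the housekeeping scale (horizontal axis) of each tested member of 20 gene lists. Filled points are members called changed, open points are members that were not, black bars are list medians and the dashed line is the median of all genes tested (0.115). The medians of macrophage and bone matrix genes lay farthest to the right, at 3.55 and 3.40, and cell cycle genes formed a narrow cloud below 0.

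Transcription factors of the OB lineage changed in both directions, and 10 of 25 rose and 6 fell. *Runx2* had RQs of 0.0959, 0.184, 0.165 and 0.148 at day 8 and of 0.228, 0.360, 0.361 and 0.308 at day 14 (log2 1.08 ± 0.22, adjusted p = 0.00567). *Sp7*, downstream of RUNX2, rose by 1.46 ± 0.24 and the homeobox gene *Dlx3* by 3.52 ± 0.42, while *Dlx5* rose by 1.47. *Creb3l1*, a membrane-bound factor that drives collagen transcription in OBs, rose by 1.56. Among the falls were *Sox11* (-2.61 ± 0.27), *Msx2* (-1.56), *Twist2* (-1.16) and the chondroprogenitor factor *Sox9* (-1.05 ± 0.14). Without replicate 4, 7 of the 25 rose and 3 fell. Of 22 early and progenitor markers, 9 rose and 3 fell, with a median of 0.05, so they did not move as a group. *Cd200* (3.39), *Gli1* (2.04) and *Cxcl12* (1.73 ± 0.15) were among the rises, and *Sox9* (-1.05) and *Acta2* (-0.41) among the falls.

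Receptors through which bone cells read hormones rose or were not called. Of 19 tested, 12 rose and none fell (9 and 1 with TMM). The vitamin D receptor *Vdr* had RQs of 0.0514, 0.0355, 0.0323 and 0.0391 at day 8 and of 0.127, 0.180, 0.190 and 0.159 at day 14 (log2 2.06 ± 0.17, adjusted p = 5.2e-05). Replicate 1 was the highest at day 8 and the lowest at day 14. The parathyroid hormone receptor *Pth1r* rose by 1.95 ± 0.21 and the estrogen receptor *Esr1* by 1.83 ± 0.26, the latter from 18 to 39 counts per library. The retinoid receptor *Rxrg* (2.41) had the largest rise of the list, and *Igf1r* (-0.17) and *Lepr* (-0.78) did not pass the test.

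Of 34 Wnt ligands and receptors, 15 rose and 5 fell (7 and 3 without replicate 4), with *Wnt4* (1.61), the co-receptors *Lrp5* (1.49 ± 0.17) and *Lrp4* (1.48) among the rises and *Wnt10a* (-1.76) and *Fzd9* (-1.71) among the falls. Of 16 Wnt antagonists, 4 rose and 2 fell, near the shares over all genes (29.0% and 8.94%). Besides *Sost*, *Dkk1* had RQs of 8.58e-05, 0.00731, 0.00787 and 0.00469 at day 8 and of 0.0543, 0.152, 0.182 and 0.123 at day 14 (log2 4.57 ± 0.64), *Frzb* rose by 3.42 ± 0.31 and *Wif1* by 2.36. *Draxin* (-2.37) and *Dkk3* (-0.32) fell. Among 9 Wnt target genes 2 rose (1 without replicate 4), *Tcf7* (1.62) and *Ccnd1* (0.65), and *Axin2*, the usual readout of β-catenin signaling, did not pass the test (-0.14). With the replicate number as a block, 8 antagonists and 4 target genes rose.

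BMP and TGF-β genes gave 16 rises and 6 falls among 39, and the 6 falls were not called without replicate 4. *Bmp8a* (3.81 ± 0.27), *Bmp3* (2.59), *Gdf5* (2.44) and *Bmp2* (2.21 ± 0.36) rose together with the antagonists *Nog* (1.68) and *Bambi* (1.97), and the receptor *Bmpr1b* fell (-1.82). In the list of FGF, hedgehog and Notch genes, 14 of 29 rose and 3 fell. *Ihh* encodes Indian hedgehog, and *Ptch1* and *Gli1* are its usual target genes. The RQ of *Ihh* was 0.000686, 0.00632, 0.00682 and 0.00496 at day 8 and 0.0336, 0.0329, 0.0358 and 0.0306 at day 14. The 4 libraries were close to each other at day 14, and at day 8 replicate 1 was far below the others (log2 2.76 ± 0.46, adjusted p = 0.00252). *Ptch1* (2.00 ± 0.08) and *Gli1* (2.04 ± 0.29) rose as well. Of the Notch pathway, the ligand *Jag2* (3.43) and the target *Hey1* (2.24) rose, and *Notch1* and *Jag1* did not pass the test.

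Genes that respond to low oxygen were higher at day 14. By the study's description the cultures were in atmospheric oxygen at both days, but one of its experiments used low oxygen during the expansion before day 8, and the part of this in the result was not tested. Of 15 hypoxia targets, 14 rose and 1, the vasodilator peptide gene *Adm*, fell (-0.50), with a median of 1.53. *Ankrd37*, an ankyrin repeat protein gene, had RQs of 0.000257, 0.00581, 0.00642 and 0.00376 at day 8 and of 0.0371, 0.0603, 0.0696 and 0.0554 at day 14. The days did not overlap, and replicate 1 was far below the other replicates at day 8 (log2 3.69 ± 0.53, adjusted p = 0.00118). *Egln3*, an oxygen-sensing hydroxylase, showed the same order, with RQs of 0.00129, 0.0323, 0.0381 and 0.0241 at day 8 and of 0.0743, 0.170, 0.214 and 0.146 at day 14 (2.62 ± 0.68). *Vegfa*, which attracts vessels, differed little between replicates at day 8 (0.0954 to 0.106) and reached 0.248, 0.392, 0.410 and 0.329 at day 14 (1.78 ± 0.15). *P4ha1*, described above, is a member of the list, too. *Bnip3* (1.96) and *Higd1a* (2.09), both mitochondrial, rose as well. Without replicate 1, the list gave 14 rises and 1 fall again, and without replicate 4, 11 and 1.

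Glucose uptake and glycolysis followed, with 21 of 26 genes up and none down, and a median of 0.84. The RQ of *Pgk1* was 0.304, 0.506, 0.516 and 0.436 at day 8 and 1.18, 1.10, 1.19 and 1.14 at day 14 (log2 1.39 ± 0.15). *Aldoc* (3.05 ± 0.22) had the largest rise, followed by *Pdk1* (1.495), which turns pyruvate away from mitochondria, and the regulatory enzyme *Pfkfb3* (1.48). The glucose transporter *Slc2a1* rose by 1.18 ± 0.20 and *Gapdh*, often taken as a constant reference, by 0.74 ± 0.06. Replicate 1 was the lowest at day 8 for *Pgk1*, *Aldoc* and *Slc2a1*, and at day 14 it was within the range of the others for *Pgk1*. Nuclear genes of the respiratory chain gave 26 rises and 1 fall among 83 on the housekeeping scale, and 9 and 9 with TMM. The share of rises was near the 29.0% of all genes, and without replicate 4, 7 rose. Of 13 mitochondrially encoded mRNAs, only *mt-Nd3* (1.02) was called.

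**Figure D4:**
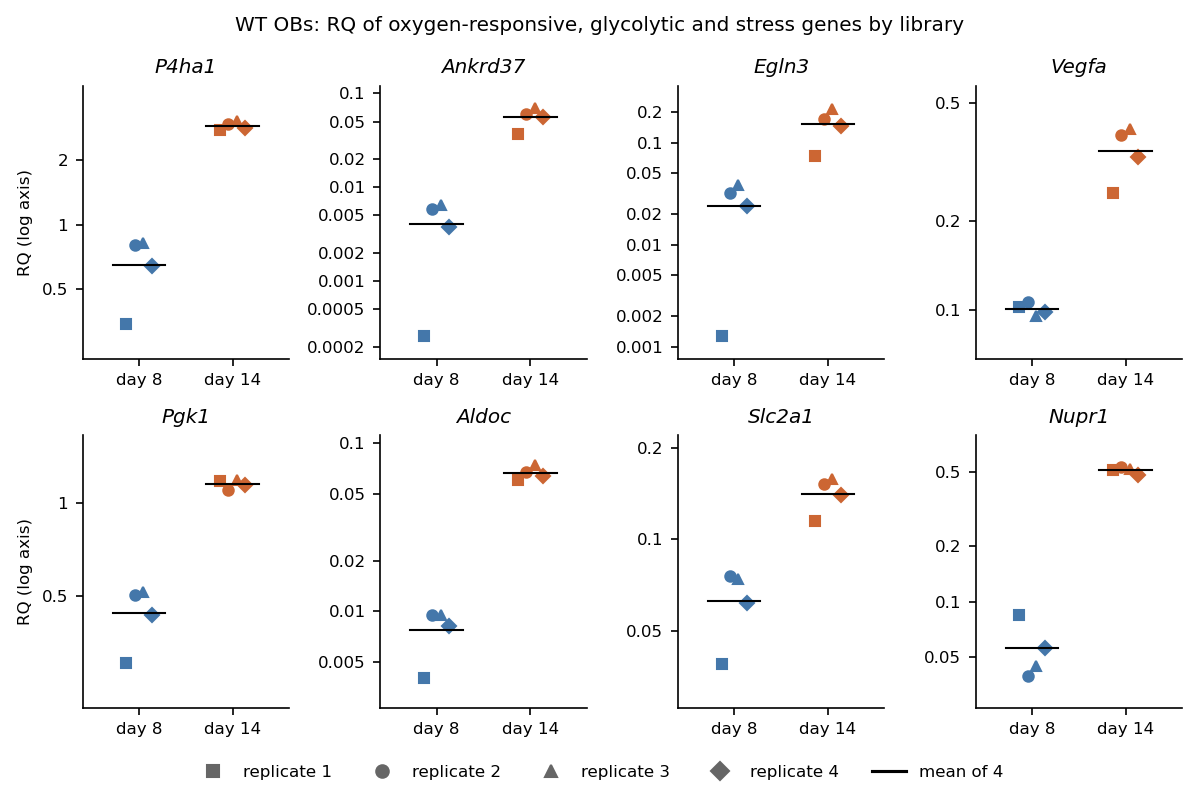
RQ (log axis) of 8 genes that respond to oxygen, glucose or stress in each WT library at days 8 and 14, with a symbol for each replicate and a line at the mean of 4. All 8 genes were higher in each day 14 library than in any day 8 library, and *Ankrd37* and *Egln3* in replicate 1 at day 8 were at 0.000257 and 0.00129, far below the other replicates.

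The promoter of *Ankrd37*, which rose most in the hypoxia list, is shown with the 5-letter core ACGTG of hypoxia response elements in capitals (either strand; RefSeq, GRCm38.p6, chr8:45999801-46000100, minus strand).
Ankrd37: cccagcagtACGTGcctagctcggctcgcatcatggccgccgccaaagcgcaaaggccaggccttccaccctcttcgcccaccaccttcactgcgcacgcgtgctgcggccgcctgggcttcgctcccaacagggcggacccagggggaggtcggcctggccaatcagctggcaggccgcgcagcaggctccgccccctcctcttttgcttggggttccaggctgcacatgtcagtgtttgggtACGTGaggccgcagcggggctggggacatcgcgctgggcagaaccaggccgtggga
It holds 2 matches, at -241 and -6. Windows were found for 14 of the 15 list members, and 9 of the 14 hold the core (64.3%), beside 19.7% of all windows. As the list consists of hypoxia targets, its share does not bear on the change between the days. Of the 13 members that rose and have a window, 9 hold the core.

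Targets of the integrated stress response, in which phosphorylation of eIF2α raises translation of ATF4, were mostly higher at day 14. Of 40 tested, 29 rose and 1, *Cebpb*, fell (-0.39), and without replicate 4, 20 rose and none fell. The stress-induced chromatin protein gene *Nupr1* had RQs of 0.0848, 0.0395, 0.0450 and 0.0561 at day 8 and of 0.515, 0.536, 0.520 and 0.481 at day 14 (log2 3.197 ± 0.23, adjusted p = 3.69e-05). *Atf3* (3.01), *Chac1* (2.54), which degrades glutathione, *Trib3* (2.22 ± 0.17) and the cystine transporter *Slc7a11* (1.69) also rose. Other examples were the asparagine synthetase gene *Asns* at 1.00 and the serine synthesis gene *Psat1* at 0.45, while *Phgdh* (0.16) and *Aars* (0.22) were not called. Chaperones of the ER stress response stayed closer to 0. Of 34 genes, 17 rose and 1 fell, but *Hspa5*, *Hsp90b1*, *Calr* and *Pdia6* did not pass the test (log2 of 0.10, 0.08, -0.02 and 0.12), and with TMM the split was 14 and 5. Translocon subunits (*Ssr2* at 0.64, *Sec61a1* at 0.37) and *Xbp1* (0.70) were among those that rose.

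The *Nupr1* promoter (RefSeq, GRCm38.p6, chr7:126625421-126625720, minus strand) is shown with the match to TGATGNAA, the element shared by CEBP and ATF4 heterodimers, in capitals.
Nupr1: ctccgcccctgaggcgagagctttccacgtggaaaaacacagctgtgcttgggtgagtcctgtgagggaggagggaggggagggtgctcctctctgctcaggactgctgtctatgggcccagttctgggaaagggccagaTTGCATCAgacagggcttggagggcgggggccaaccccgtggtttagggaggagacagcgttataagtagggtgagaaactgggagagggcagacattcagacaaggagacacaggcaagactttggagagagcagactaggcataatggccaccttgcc
It holds 1 match, on the opposite strand at -110. Windows were found for 33 of 40 list members, and 12 of them hold the element (36.4%), beside 4.1% of all windows. The list consists of targets of this response, so its share does not bear on the change between the days. Of the 25 members that rose and have a window, 9 hold the element.

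Proliferation genes fell together by small amounts. Of 64 genes of the cell cycle and DNA replication, 54 fell and 1 rose (*E2f2*, 0.36), with a median log2 fold change of -0.53. The ribonucleotide reductase subunit *Rrm2*, which makes DNA precursors, had the largest fall, with RQs of 0.286, 0.217, 0.218 and 0.232 at day 8 and of 0.151, 0.107, 0.104 and 0.121 at day 14 (log2 -0.98 ± 0.14, adjusted p = 0.000628). *Ccne1* (-0.90 ± 0.13), *Mcm5* (-0.75) and *Plk1* (-0.74) followed. *Mki67*, the usual marker of cycling cells, went from RQs of 0.444 to 0.500 to RQs of 0.316 to 0.377 (-0.46 ± 0.07). Without replicate 4, 28 of the 64 fell, at a median of -0.54. Of 8 inhibitors of cyclin-dependent kinases, *Cdkn1a* (0.62) and *Cdkn2a* (1.19) rose and *Cdkn2c* (-0.36) fell, and without replicate 4 none rose and 1 fell.

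The *Rrm2* promoter (RefSeq, GRCm38.p6, chr12:24708004-24708303, plus strand) is shown with the CCAAT box, bound by the factor NF-Y, in capitals.
Rrm2: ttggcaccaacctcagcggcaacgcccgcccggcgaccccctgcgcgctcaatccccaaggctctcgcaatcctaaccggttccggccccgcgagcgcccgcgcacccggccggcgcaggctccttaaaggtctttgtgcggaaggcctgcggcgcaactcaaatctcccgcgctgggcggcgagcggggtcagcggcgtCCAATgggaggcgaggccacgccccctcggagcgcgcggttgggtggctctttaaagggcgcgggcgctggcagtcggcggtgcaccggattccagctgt
The single match begins at -50. Of 64 list members 53 have a window and 37 of these hold a CCAAT box (69.8%), beside 37.9% of all windows. As the list consists of cell cycle genes, its share does not bear on the change between the days. Among the 45 members that fell and have a window, 31 hold one.

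Imprinted growth genes, many of which are active in the fetus and decline after birth, fell or were not called. Of 15, 7 fell and none rose. *Igf2* encodes the fetal growth factor and *H19* is the non-coding RNA beside it. The RQs of *Igf2* were 5.40, 6.31, 6.04 and 6.02 at day 8 and 4.00, 3.08, 3.09 and 3.38 at day 14 (log2 -0.81 ± 0.09, adjusted p = 0.000216). *H19* had RQs of 10.3, 18.6, 17.8 and 15.7 at day 8 and of 9.73, 7.27, 7.69 and 7.72 at day 14 (-0.95 ± 0.18). In replicate 1 the change of *H19* was -0.08 only, and in replicates 2 to 4 each day 14 value was at most 7.72 and each day 8 value at least 15.7. *Peg10* (-1.97 ± 0.22), derived from a retrotransposon, and *Dlk1* (-1.59 ± 0.20), a Notch-like inhibitor of differentiation, fell more. The gene model *Gm49394* spans *Igf2* on the same strand and had nearly the same counts, so its value of -0.81 cannot be separated from that of *Igf2*.

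Genes of adhesive matrix proteins changed both ways. *Fn1* had RQs of 73.0, 58.5, 52.4 and 61.6 at day 8 and of 35.1, 27.4, 26.8 and 30.8 at day 14 (log2 -1.03 ± 0.12, adjusted p = 0.000234). The thrombospondin gene *Thbs1* fell by 0.58 ± 0.08, and *Ltbp1* (-1.67 ± 0.25), which anchors latent TGF-β, *Fbln2* (-1.57) and *Tgfbi* (-1.41 ± 0.24) fell, too. Of 32 matricellular and adhesive genes, 7 rose and 9 fell (4 and 4 without replicate 4), with *Ccn4* (1.59) and periostin (*Postn*, 1.24) among the rises. *Plat*, a plasminogen activator, fell (-1.30). Of 40 proteases and inhibitors, 19 rose and 5 fell (12 and 1 without replicate 4), and the collagenase *Mmp13* had little spread between replicates, with RQs of 1.01 to 1.199 at day 8 and of 4.00 to 4.16 at day 14 (1.91 ± 0.07, adjusted p = 6.46e-07). Among 20 integrins 6 rose, near the 29.0% of all genes, and 4 fell (3 and 1 without replicate 4), with the fibronectin receptor chain *Itga5* at -0.84 and the collagen receptor chain *Itga10* at 1.99. Of 18 contractile genes, 8 fell and 2 rose (10 and none with TMM, 4 and none without replicate 4), and *Des* (-2.61 ± 0.25), *Cnn1* (-1.07 ± 0.13) and *Acta2* (-0.41 ± 0.11, adjusted p = 0.0162) were among the falls.

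Genes were ranked by fall if they averaged 50 counts or more and did not overlap between the days, and several of the top 12 varied widely between replicates. *Dynap*, which encodes a dynactin-associated membrane protein, had 1259 counts over the 4 day 8 libraries and 6 over those of day 14, a 202.5-fold difference on the housekeeping scale with a 95% counting interval from 92.8 to 552.8. The protease inhibitor *Serpinb2* had RQs of 0.0599, 0.00369, 0.00262 and 0.0151 at day 8, so replicate 1 exceeded replicates 2 and 3 by over 10-fold, and 0.000822 or less at day 14 (log2 -6.24 ± 1.41, adjusted p = 0.0103). *Prss22*, *Fabp7*, *Il1rl1* and *Gjb2* fell by 4.05, 3.51, 2.96 and 2.90 on the log2 scale, with replicate 1 the highest at day 8 for each. *Igfn1* (-3.12 ± 0.23) varied less, from 0.00369 to 0.00683 at day 8.

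Macrophage genes rose more than any other list in the median (3.55). All 20 markers tested rose, none was at 0 in all 8 libraries, and their summed level was 154.0 to 294.8 CPM at day 8 and 796.5 to 2465 CPM at day 14. *Csf1r*, the receptor for macrophage growth factor, had RQs of 0.0472, 0.0352, 0.0301 and 0.0357 at day 8 and of 0.302, 0.141, 0.109 and 0.193 at day 14 (log2 2.33 ± 0.33, adjusted p = 0.00105). Replicate 1 was the highest at both days, and the days did not overlap. The complement gene *C1qa* (3.62 ± 0.40), the lysozyme gene *Lyz2* (2.87 ± 0.46) and *Cd68* (3.11 ± 0.42) behaved alike, with the same order of replicates at day 14. *Fcrls* and *Fcgr2b*, Fc receptor genes of myeloid cells, were among the 12 largest rises by the same rule (5.71 ± 0.70 and 5.39 ± 0.66). Of 9 osteoclast genes 5 rose, among them *Atp6v0d2* (2.77) and *Mmp9* (2.49), while *Acp5* (0.17) and *Nfatc1* (0.09) were not called. Among 19 chemokine genes 11 rose and none fell (6 and none without replicate 4), with *Ccl6* (3.34), *Ccl3* (3.39) and *Ccl9* (1.73) beside the stromal *Cxcl12*. Of 37 lysosome and autophagy genes 27 rose and none fell (25 and 1 with TMM, median 0.39), led by *Ctss*, a cathepsin of myeloid cells (3.45 ± 0.49), with *Ctsk* at 0.99 and *Lamp1* at 0.42. The part of the macrophage markers in the rises of the osteoclast, chemokine, lysosome and interferon lists was not tested.

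Of 34 interferon-stimulated genes 21 rose and none fell, with a median of 1.10, while 21 rose and 3 fell with TMM. The summed level of the list did not rise in CPM. Its mean was 344.6 CPM at day 8 (329.4 to 376.5) and 343.8 CPM at day 14 (288.0 to 449.2). Scaled by library total, log2 values of genes were lower than on the housekeeping scale by a median of 0.289 (-0.289). The sum and the counts of rises are thus on unlike scales. *Rsad2*, an antiviral enzyme gene, had 5 counts over all day 8 libraries and 102 over those of day 14, a ratio of 21.1 on the housekeeping scale (95% counting interval 8.77 to 66.5). *Oas1a* (3.64 ± 0.54), *Ifit3* (1.74) and *Isg15* (1.28) rose, and *Irf1* (-0.14) and *Ifit2* (-0.24) did not pass the test. *Ifit3* has a near-identical copy, *Ifit3b* (1.73). Without replicate 4, 13 of the 34 rose. The promoter of *Rsad2* (RefSeq, GRCm38.p6, chr12:26456403-26456702, minus strand) is shown with the match to the core of the interferon-stimulated response element (ISRE) in capitals.
Rsad2: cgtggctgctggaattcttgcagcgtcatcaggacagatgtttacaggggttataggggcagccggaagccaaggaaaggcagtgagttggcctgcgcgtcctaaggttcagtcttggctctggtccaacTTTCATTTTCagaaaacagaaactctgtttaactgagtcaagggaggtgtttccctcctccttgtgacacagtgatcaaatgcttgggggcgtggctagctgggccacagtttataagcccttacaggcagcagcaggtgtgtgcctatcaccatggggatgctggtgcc
The match lies on the opposite strand at -120, and 3.5% of all windows hold one. The share within the list is not given, because only 25 of its 34 tested members have a window in the table.

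The other cell types the cultures could hold moved less. Cartilage genes had a summed level of 15690 to 22970 CPM at day 8 and 6142 to 15020 at day 14, highest in replicate 1 at both days. Of 16 tested, 3 rose and 3 fell (1 and 2 without replicate 4), with a median of -0.62. With TMM 3 rose and 6 fell, and without replicate 1, 3 rose and 7 fell, with a median of -0.98. The 3 falls in the full set were *Matn3* (-1.71), *Sox9* and *Sox5*. *Col2a1* had RQs of 30.3, 18.4, 16.7 and 21.5 at day 8 and of 17.6, 5.19, 4.86 and 10.5 at day 14, which overlapped (log2 -1.19 ± 0.44, adjusted p = 0.0649). *Col10a1*, of hypertrophic cartilage, rose (1.16). Skeletal muscle markers summed to 15.9 to 28.0 CPM in all 8 libraries. Endothelial *Pecam1* and fibroblast *Clec3b* had RQs of at most 0.00131 and 0.000501, and the neutrophil and lymphocyte list summed to less than 1 CPM at either day.

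The markers that the study used for OBs, their stages or differentiation and other cells were tested one by one. The test was a two-sided exact permutation test over the 70 ways to split 8 libraries, for which 0.0286 is the smallest p that can be reached. By the study's rule of a change above 20%, 12 of 15 changed, each with p = 0.0286 (adjusted p = 0.0357 over the 15 in the exact permutation test). The mean RQ at day 14 divided by that at day 8 was above 1 for 10 of them, from *Runx2* (2.12), *Sp7* (2.76), *Cxcl12* (3.32) and *Col1a1* (3.81) over *Dmp1* (7.87), *Cd68* (8.47), *Ifitm5* (11.1) and *Ibsp* (20.9) to *Cd33* (26.0) and *Bglap* (154.6). *Sox9* and *Acta2* were lower, at 0.484 and 0.754. With the replicate numbers taken as pairs, the days can only be swapped within pairs, in 16 ways, and the exact permutation p of each of the 12 was 0.125, the smallest such swaps can give, so none could be called. Without replicate 4, an exact test of 3 against 3 libraries could not reach the threshold either. *Clec3b* (2.90) and *Acan* (0.614) had an exact p of 0.0571, and *Pecam1* (0.770) one of 0.371.

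Genes of basic cell functions shifted little or with the scale. Of 85 genes of cytosolic ribosomal proteins, 42 rose with a median of 0.19 on the housekeeping scale, with TMM 2 rose and 1 fell, and without replicate 4, 5 rose. Of 23 cholesterol synthesis genes 5 fell and 1 rose. Of 18 circadian clock genes 12 rose and none fell, with *Bhlhe41* at 1.76, *Arntl* at 0.71 and *Dbp* at 0.70, and 5 rose without replicate 4. *Per1* and *Per2* (0.15 and 0.19) were not called. The hour at which RNA was taken is not given in the sources used here.

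Day 21 libraries put these levels in context. They share the day 14 libraries with the comparison above, so both sets of values are given side by side. Between days 21 and 14, 2727 of 18633 genes differed (14.6%), and 9.06% of genes tested were higher and 5.57% lower at day 21. *Mepe* rose again, by 2.32 (adjusted p = 0.0299), and *Igf2* (-1.5, adjusted p = 0.000229), *H19* (-1.37) and *Rrm2* (-0.71) fell again. *P4ha1* fell from day 14 to day 21 (-0.45, adjusted p = 0.00371). For *Col1a1*, *Alpl*, *Ibsp*, *Bglap*, *Phex* and *Ihh* the later change did not pass the test, at log2 values of 0.14, 0.29, 0.87, 1.14, 0.34 and -0.19. *Lyz2* and *Csf1r* rose further (1.39 and 1.18, adjusted p = 0.0493 and 0.0452).

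Het cultures were compared to ask whether the same interval looked different in cells that make the mutant chain. Between days 14 and 8, 4575 of 18200 genes (25.1%) changed in Het. The test of the difference between the WT and Het changes called 3 of 19658 genes (0.0153%), and all had the lower value in WT. At an unadjusted p under 0.05 it found 680 of the 19658 genes, fewer than that threshold alone would give if no gene differed. No gene was called with TMM or without replicate 2, 3 or 4, and 493 were called without replicate 1. *Trib3*, a stress-induced pseudokinase gene, reached RQs of 0.0234 to 0.0269 in WT at day 14 but 0.0976, 0.251, 0.191 and 0.179 in Het, from 0.00413 to 0.00755 and from 0.00704 to 0.01001 at day 8 (difference of log2 changes -2.28 ± 0.34, adjusted p = 0.0492). *Cdsn*, which encodes corneodesmosin, fell in WT (-1.51) and rose in Het (0.97), a difference of -2.48 ± 0.34 (adjusted p = 0.0289). *Car6*, a secreted carbonic anhydrase gene, had RQs of at most 0.000404 in all WT libraries of both days and of 0.00329 to 0.0223 in Het at day 14 (-5.27 ± 0.70, adjusted p = 0.0289). For *Col1a1*, *Ibsp* and *Bglap* the difference was 0.18 ± 0.43, -1.07 ± 0.47 and 0.32 ± 1.04, and none passed the test.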

How the data were processed

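The deposited counts per gene were used as whole numbers. Per the submitters' processing notes, reads were trimmed with cutadapt 2.5, mapped with STAR to mm10 and counted with featureCounts 1.6.4. The strand and multi-mapping rules are not given in the sources used here. Reads carry no molecular identifiers, so intervals and floors cover counting error only. Totals were 21193927 to 59734231 per WT library at days 8 and 14. Groups came from the labels. Gene positions are from GENCODE M21 and promoters from RefSeq.

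Libraries were scaled by their housekeeping counts (geometric mean over *Sdha*, *Actb*, *Actg1* and *Mrfap1*), the study's own reference. Genes kept by filterByExpr were tested with edgeR 4.0.16 (R 4.3.3) by the robust quasi-likelihood test with Benjamini-Hochberg adjustment at 0.05. The SE beside a log2 fold change was back-calculated from this test, as the absolute log2 value over the square root of its F value. Stage markers were tested with exact permutation tests. The difference between the WT and Het changes was an interaction term over 16 libraries. In simulated counts for the WT comparison (18538 genes), 200 genes that averaged 50 counts or more were changed, far fewer than were called in the data. Replicates were drawn independently, without the offset of replicate 1. There edgeR recovered 78.2% of genes changed by a log2 of 1 and 95.6% of those changed by 2, with 6.38% false among calls. These rates hold for that setting and were not measured for the calls in the data.

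Replicate numbers are from the labels. Deviations from the group means correlated at 0.648, 0.463, 0.504 and 0.392 between same-numbered libraries of the 2 days. Between replicates 2 and 3 the values across numbers were alike (0.486 and 0.476), so pairing by number is not shown for these. The main test used no pairs, and the numbers were taken as pairs only in the replicate block and the swaps. Alternatives were TMM, DESeq2 1.42.0, total count, other filters, the replicate block and leaving out libraries. Named genes were the 12 largest rises and falls among called genes that averaged 50 counts or more and did not overlap, the 6 largest each way in CPM, the stage markers and housekeeping genes, the extreme and most counted members of each list with further examples of its count, and up to 5 interaction genes each way. The comparison and the gene lists were chosen with earlier results of these data known. Some items are not reported here.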

Additional observations from a re-analysis of the deposited data

Results flagged for a closer look

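Libraries of 1 group that lay far from the others were sought in 150 groups of 4, of which chance alone would give about 1 in 20, and 4 were found. All were replicate 1 of WT at day 8. Its RQ of *Mogat2* was 0.00977, with the others at 0.00283 to 0.00397. Its RQ of *Acta2* was 4.79, with the others at 3.57 to 3.77. Its RQ of the housekeeping gene *Sdha* was 0.368, with the others at 0.316 to 0.321. Its RQ of *Rsad2* was 0.0001715, which is 2 counts, with the others at 1 count each. In the test of the difference between WT and Het, *Car6* (-5.27), *Cdsn* (-2.48) and *Trib3* (-2.28) changed differently from day 8 to day 14.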

How the results depend on the processing

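The number of genes that differed between the days (7019, with 5367 higher and 1652 lower at day 14) moved with scale and libraries. The lower genes numbered 4113 with TMM, 3948 with DESeq2 size factors, 4152 with DESeq2's own test and 7055 with total count, which left 2632 higher. Against a change of 20%, 3777 genes were called, 3086 higher and 691 lower. With the replicate number as a block there were 9434 calls with 2835 lower, and 3058 were lower with replicate 1 against the others as covariate. TMM with the replicate block, chosen after seeing the data, gave 4779 lower. Leaving out 1 replicate number in turn gave 3678 to 10199 calls, 3066 to 6980 higher and 612 to 3219 lower, with the low ends without replicate 4 and the high ends without replicate 1. Without replicate 4, 3669 of the 3678 calls were shared with the full set in the same direction. Without replicate 2 or 3, 4468 and 4705 genes were called, 696 and 907 of them lower. Without 1 day 14 library, the lower genes numbered 2547 (replicate 1), 1044 (replicate 2) and 1065 (replicate 3). The 3 genes that differed between the WT and Het changes became 0 with TMM or DESeq2 size factors, 45 with DESeq2's own test, 5 with the replicate block and 0 to 493 without 1 replicate number. The cause was not tested. The 12 changed stage markers ranged from 11 to 13 by scale and were 0 with exact swaps within the replicate pairs, chosen after seeing the data, which cannot pass the threshold. Checks of single named genes covered 36 genes only. Of these checks, 817 kept direction and call, 11 lost the call and none changed direction. The other genes named in the text were not part of these checks, and those not called without replicate 4 are listed in the Results. *Acta2* lost it in 7 settings, *Prss22* in 2, and *Serpinb2* and *Fabp7* only without replicate 4. Depth limits *Sost*, *Mepe* and *Rsad2*, which had few counts at day 8.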

Other observations

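Of 14 genes of the insulin-like growth factor axis, 4 rose and 2 fell (2 and 2 without replicate 4), with *Stc2*, an inhibitor of the protease that frees these factors, at 1.998 and that protease's gene *Pappa* at -0.913 on the log2 scale. Of 16 small leucine-rich proteoglycans of the collagen matrix, 7 rose and 1 fell (4 and 1 without replicate 4), with *Omd* at 1.783 and *Chad* at 1.618. Among 24 immediate early genes 7 rose and 3 fell (5 and none without replicate 4), with *Klf4* at 2.525 and the AP-1 subunit *Fosl1* at -1.341. The shares of rises in these growth factor and immediate early lists were near the 29.0% of all genes. Of 8 genes that support osteoclasts, *Il34* rose (0.588) and *Csf1* fell (-0.590, not called without replicate 4), while *Tnfsf11* and *Tnfrsf11b*, which encode RANKL and its decoy receptor, were at 0.092 and -1.105 and did not pass the test.

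Of the markers of further cell types, 4 of 8 for fibroblasts and tendon rose (2 without replicate 4), as did 3 of 8 for adipocytes, with *Cd36* at 2.513, and 3 of 6 for endothelium, with *Kdr* at 1.984 (1 of 6 without replicate 4). Of 8 skeletal muscle markers 1 rose and 3 fell, of 8 for neurons and glia 2 rose and 1 fell, and of 2 for epithelium 1 rose and 1 fell (1 and none without replicate 4). The single neutrophil or lymphocyte marker tested did not pass the test.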
